A study of Homo sapiens with 2 samples.

Results

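The DLK1-DIO3 region at 14q32 holds one of the largest groups of microRNA (miRNA) genes in the human genome, and its members were followed here in A375 cells. The members were all rows of the deposited table that come from 48 named hairpin precursors of this region. They made up 58 of 1546 rows, or 58 of 1497 mature miRNA names, from 41 of 1095 hairpins. Their names chose them, not their levels. Of the 48 precursors, 40 had at least 1 row. The other 8 (mir-493, mir-337, mir-665, mir-431, mir-433, mir-432, mir-1193 and mir-300) had no row and were not analysed here. Every row of the table was above 0 in at least 1 library. The table therefore cannot tell whether a name without a row had 0 reads in both libraries or was not counted.

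A375 is an established human melanoma cell line. Small RNA was sequenced from 1 group of 2 libraries, replicate 1 and replicate 2, both from A375 cells given DMSO, a solvent that serves as vehicle, for 48 h. No second condition was present, so no result speaks of a treatment, and the only error is the spread between these libraries. The series text calls the replicates independent without saying how they were grown apart, so this spread may be partly technical. Summed over all rows, the libraries held 10816826 and 15428446 reads assigned to miRNA hairpins. A name listed under several hairpins enters these totals once per row. Each read was worth 0.0924 and 0.0648 RPM, which means reads per 1000000 of these assignments. A count of 0 reads allows up to 3 reads, or 0.277 RPM in replicate 1 and 0.194 RPM in replicate 2, and these limits and all intervals cover counting error only.

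The region is imprinted: the parent of origin decides which copy is used. The noncoding RNAs MEG3 and MEG8 and the miRNAs are made from the maternal chromosome, and the protein genes DLK1, RTL1 and DIO3 from the paternal one. A miRNA is cut from one arm (5p or 3p) of a hairpin in a longer transcript, and its seed, bases 2 to 8, pairs with target messenger RNAs. The 14q32 miRNAs are abundant in embryo, placenta and brain, and their loss has been described in several tumours, melanoma among them.

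In the GENCODE 29 annotation of GRCh38, the 48 precursors correspond to 51 hairpin genes on the plus strand of chromosome 14, which fall into 2 sides. The upstream side has 9 hairpins from 100869060 to 100911213. Of these, mir-431, mir-433, mir-127, mir-432 and mir-136 lie opposite an exon of RTL1, whose messenger RNA they can cleave. The downstream side has 42 hairpins from 101022066 to 101066801. Between them lie 111 kb with 39 SNORD113 and SNORD114 genes, which encode small nucleolar RNAs. The genome build behind the deposited values is not given in the sources used here, and positions were attached by name only.

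RefSeq (GRCh38.p14) gave a mature sequence for 57 of the 58 names. The 6 most abundant members, on which most results turn, are shown first, 5′ to 3′, with the seed in capitals.
miR-411-5p: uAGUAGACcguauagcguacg
miR-381-3p: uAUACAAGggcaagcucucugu
miR-409-3p: gAAUGUUGcucggugaaccccu
miR-410-3p: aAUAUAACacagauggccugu
miR-654-3p: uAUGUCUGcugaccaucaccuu
miR-889-3p: uUAAUAUCggacaaccauugu

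These 6 seeds were all different, and no other listed name with a RefSeq sequence carried one of them. Such a sequence was at hand for 1317 of the 1497 names, and the rest could not be compared. Only miR-381-3p has a partner by seed in the cluster, miR-300, which had no row. The nearest other human mature sequence was 3 edits away for miR-381-3p (again miR-300), 6 for miR-410-3p, 7 for miR-411-5p (miR-379-5p) and 8 for miR-409-3p, miR-654-3p and miR-889-3p. An edit is 1 base changed, added or removed. The relatives of miR-411-5p and miR-381-3p are given for comparison.
miR-379-5p: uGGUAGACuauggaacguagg
miR-300: uAUACAAGggcagacucucucu

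The cluster was present at a low level that a few members carried. All 58 members together had 101 RPM in replicate 1 and 70.6 RPM in replicate 2. Out of the RPM of all names, with each mature name counted once, that was 0.0130% and 0.00903%, a mean of 0.0110% ± 0.00284 (SD, n = 2). The 6 names above held 78.4% of the cluster's RPM in replicate 1 and 79.8% in replicate 2, and the remaining 52 names shared 21.8 and 14.3 RPM. The median member had 0.324 and 0.194 RPM in replicates 1 and 2, against 0.555 and 0.583 RPM for all 1497 names. Names without a row are in neither median.

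MiR-411-5p, known as a target of adenosine-to-inosine editing, was the highest member, with 20.2 RPM (219 reads) in replicate 1 and 16.3 RPM (252 reads) in replicate 2. It ranked at number 301 of all mature names by mean. MiR-381-3p followed with 16.6 RPM (180 reads) and 9.01 RPM (139 reads), and it differed most between the libraries among the 6. MiR-409-3p had 13.96 RPM (151 reads) and 10.3 RPM (159 reads). In both libraries miR-411-5p led, but miR-381-3p was second in replicate 1 and miR-409-3p in replicate 2. MiR-410-3p had 11.6 RPM (125 reads) and 9.01 RPM (139 reads). MiR-654-3p had 10.2 RPM (110 reads) and 7.06 RPM (109 reads), and miR-889-3p 6.75 RPM (73 reads) and 4.67 RPM (72 reads). As mean ± SD over the libraries (n = 2), the values were 18.3 ± 2.77, 12.8 ± 5.40, 12.1 ± 2.58, 10.3 ± 1.80, 8.62 ± 2.20 and 5.71 ± 1.47 RPM in that order. Each of these ranges overlapped that of the next name, so the ranges do not resolve names next to each other in this order. The range of miR-411-5p overlapped only that of miR-381-3p. Within each library miR-409-3p was above miR-410-3p, miR-654-3p and miR-889-3p in that order, while miR-381-3p changed place. Differences between these names were not tested.

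A gap followed. Every one of the 6 had at least 4.67 RPM in each library, and every other member at most 1.85 RPM. The next name, miR-539-3p, had 1.85 RPM (20 reads) and 1.43 RPM (22 reads), 3.49-fold below miR-889-3p by mean. Below it came miR-369-3p (1.28 ± 0.803 RPM), a miRNA known for raising translation of TNF in resting cells, miR-487b-3p (1.27 ± 0.424 RPM) and miR-299-3p (1.19 ± 0.673 RPM). MiR-323b-3p (1.07 ± 0.0512 RPM) and miR-409-5p (1.01 ± 0.143 RPM), the other arm of mir-409, were the last names to average at least 1 RPM. The 46 names below them had 12 or fewer reads in either library.

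**Figure D1:**
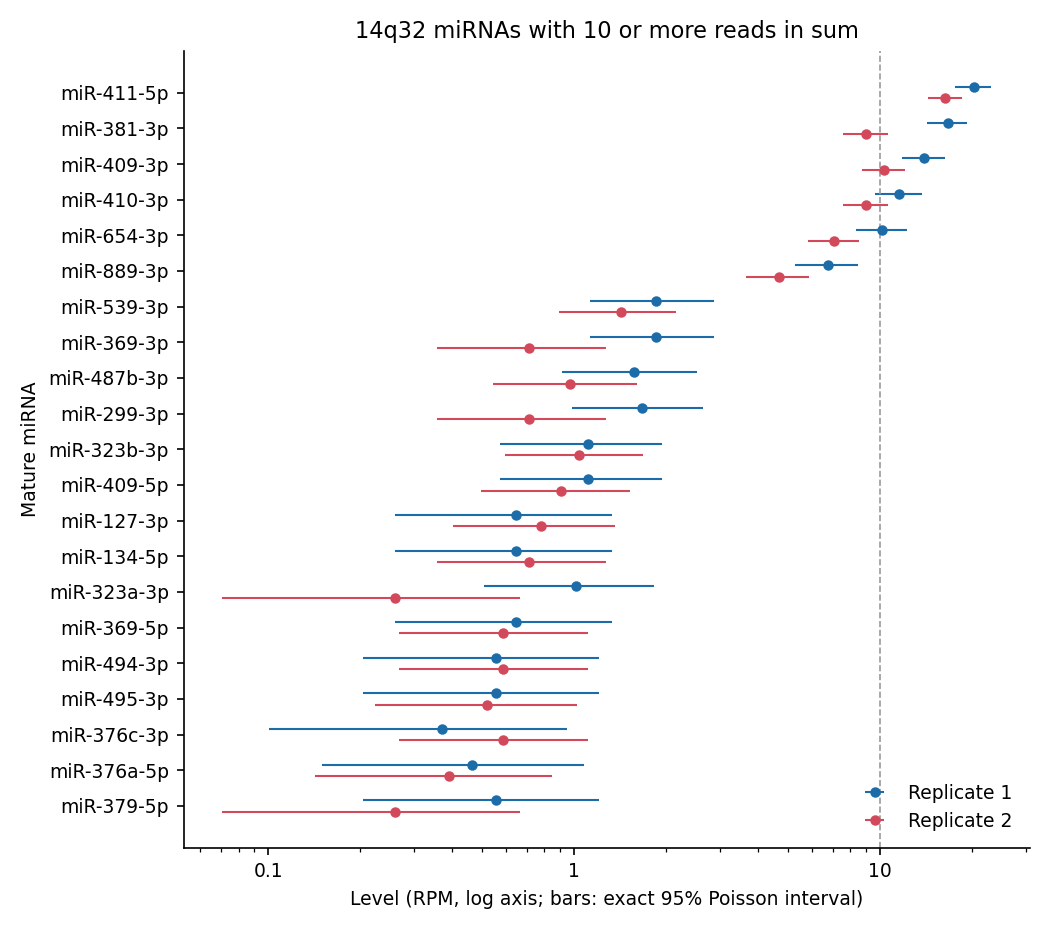
Level of the 21 members with 10 or more reads in sum (RPM, log axis) in replicate 1 (blue) and replicate 2 (red). Bars are exact 95% Poisson intervals, which cover counting error only, and the dashed line marks 10 RPM. The 6 highest names lie at or above 4.67 RPM, apart from the other 15 at 1.85 RPM or less.

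A level of 10 RPM was reached in each library by 2 of 58 members, miR-411-5p and miR-409-3p, against 22.4% of all names. Just inside that limit was miR-409-3p with 10.3 RPM in replicate 2, and just outside were miR-381-3p and miR-410-3p, each with 9.01 RPM there. Replicate 1 by itself had 5 members at that level and replicate 2 had 2, and by the mean there were 4 of 58 against 23.1% of all names. At 1 RPM in both libraries the count was 8 of 58, against 39.6% of all names. No member reached 100 RPM in either library, while 10.8% of all names did so in both. In 1 library only, 17 of 58 members were above 0 (13 in replicate 1 and 4 in replicate 2), against 22.8% of all names.

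**Figure D2:**
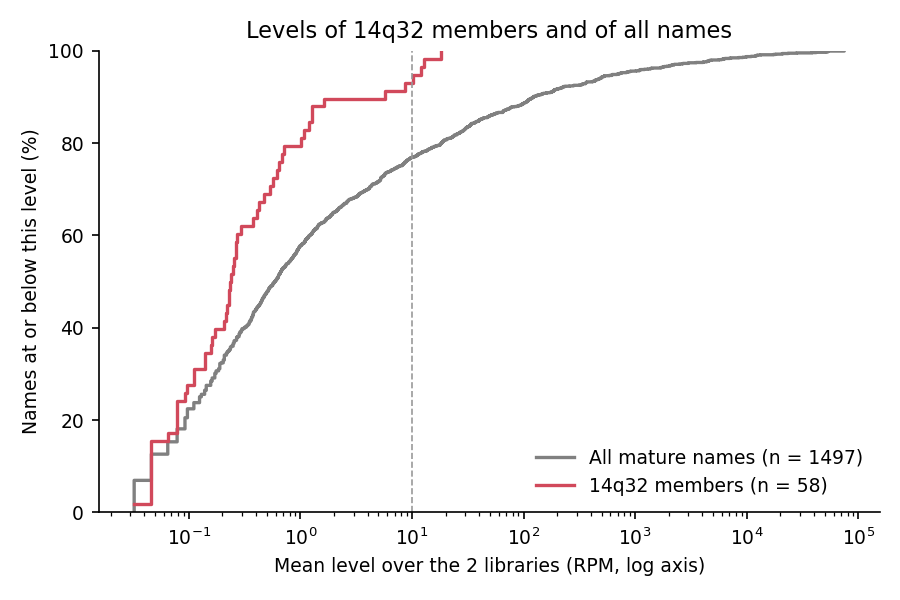
Percentage of names at or below each mean level (RPM over the 2 libraries, log axis) for the 58 members (red) and all 1497 mature names (grey); the dashed line marks 10 RPM. The red curve lies left of the grey one above 0.1 RPM and ends at 18.3 RPM, the mean of miR-411-5p.

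By position, nearly all of the signal of the listed names came from the downstream side. Its 54 listed names summed to 100.03 RPM (1082 reads) in replicate 1 and 69.9 RPM (1078 reads) in replicate 2. The 4 listed names of the upstream side summed to 1.11 RPM (12 reads) and 0.778 RPM (12 reads). The downstream sum was 90.2-fold the upstream one in replicate 1 (exact 95% interval 51.4 to 175) and 89.8-fold in replicate 2 (51.2 to 174). These folds compare sums over 54 and 4 names, so they do not describe a typical name. The median listed name had 0.370 RPM downstream and 0.185 RPM upstream in replicate 1. In replicate 2 these medians were 0.194 RPM downstream and 0 RPM upstream. Rows were also fewer upstream, where 3 of 9 hairpins had one, against 38 of 42 downstream. Hairpins without a row add nothing to either sum.

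On the upstream side, miR-127-3p, known as a repressor of RTL1 and of the oncogene BCL6 and as a miRNA silenced in cancer cells, had 7 and 12 reads (0.647 and 0.778 RPM).
miR-127-3p: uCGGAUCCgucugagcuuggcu
It was the only upstream name seen in both libraries. MiR-370-3p had 3 reads in replicate 1 and 0 in replicate 2. MiR-136-5p and miR-136-3p, the arms of another hairpin opposite RTL1, each had 1 read in replicate 1 and 0 in replicate 2. Without miR-127-3p the upstream mean fell from 0.944 to 0.231 RPM, an alternative added after the values were seen.

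**Figure D3:**
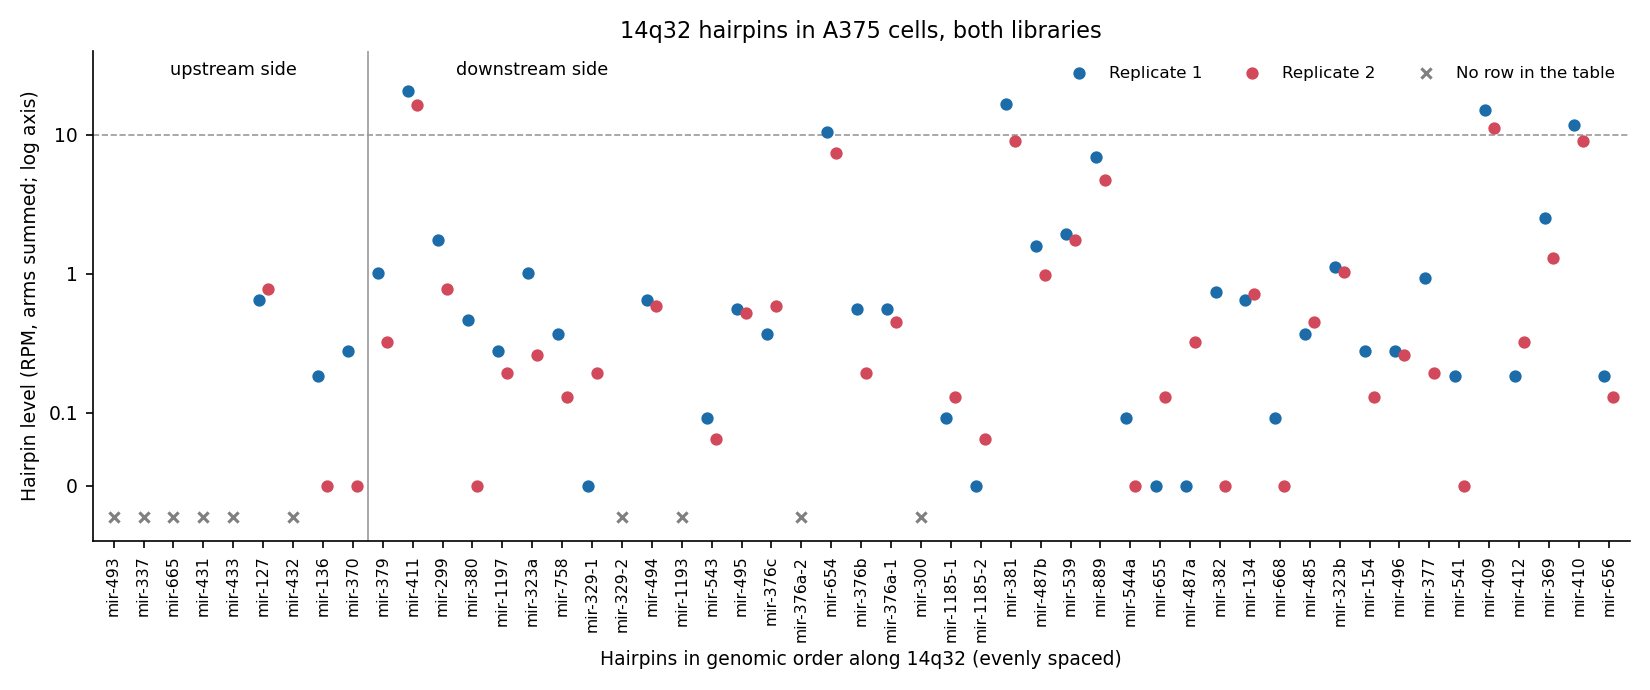
Level of each of the 51 hairpins (RPM with its arms summed, log axis with 0 drawn at the labelled tick) in genomic order, evenly spaced, in replicate 1 (blue) and replicate 2 (red); crosses are hairpins without a row, and the vertical line parts the upstream from the downstream side. The high hairpins mir-411, mir-654, mir-381, mir-889, mir-409 and mir-410 are spread over the downstream side among neighbours below 3 RPM.

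The high hairpins did not lie side by side, although hairpins of the downstream side are known to be cut from a shared long transcript. With the arms of a hairpin summed, mir-411 (chromosome 14, 101023325 to 101023420, in an intron of MEG8) had 223 and 253 reads. The next listed hairpins on its sides were mir-379, 1192 bases upstream with 11 and 5 reads, and mir-299, 373 bases downstream with 19 and 12 reads. Mir-411 was thus 20.3-fold (exact 95% interval 11.1 to 41.2) and 50.6-fold (21.4 to 157) above mir-379 in the 2 libraries. Its relation to mir-299 was 11.7-fold (7.34 to 19.9) and 21.1-fold (11.9 to 41.3). Adapter ligation favours some sequences, so reads of different miRNAs are not exact molar amounts.

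Mir-409 (101065300 to 101065378) and mir-410 (101065912 to 101065991) lie near the end of the cluster, in an intron and an exon of the noncoding gene MEG9. Mir-409 had 163 and 173 reads. Mir-412, only 68 bases further on, had 2 and 5 reads. Mir-409 was thus 81.5-fold (22.2 to 679) and 34.6-fold (14.5 to 108) above it. Mir-369, between mir-412 and mir-410, had 27 and 20 reads, and mir-410 126 and 139. Mir-656, 732 bases past mir-410, had 2 reads in each library. Levels thus went from high to low and back within a stretch shorter than the gap from mir-379 to mir-411.

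Mir-381 (101045920 to 101045994) and mir-889 (101047901 to 101047979) lie in introns of MIR381HG, with mir-487b and mir-539 between them. Mir-381 had 180 and 139 reads, all from its 3p arm, the only one listed. Mir-487b, 460 bases on, had 17 and 15 reads, and mir-381 was 10.6-fold (6.43 to 18.6) and 9.27-fold (5.43 to 17.0) above it. Mir-539 had 21 and 27 reads, and mir-889 was 3.52-fold (2.15 to 6.03) and 2.70-fold (1.72 to 4.37) above it. Mir-544a, past mir-889, had 1 read and 0 reads.

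Mir-654 (101040219 to 101040299) lies in no annotated host gene, among the hairpins of the miR-376 family. It had 112 and 113 reads, while its nearest listed neighbours mir-376b and mir-376c had 6 and 3 and 4 and 9 reads. By host gene, the summed mean was 25.9 ± 5.51 RPM for the 6 hairpins in MEG9, 21.8 ± 7.42 RPM for the 6 in MIR381HG and 23.3 ± 5.40 RPM for the 14 in MEG8. It was 14.1 ± 3.18 RPM for the 17 downstream hairpins outside these genes. The ranges of the first 3 sums overlapped. MEG8 here includes mir-370 of the upstream side.

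The miR-376 family is known for editing of its seed, which redirects miR-376a to other targets, and for repression of the growth factor receptor gene IGF1R in melanoma cells. Its 3p arms differ by few bases and are shown because reads could be moved between them.
miR-376a-3p: aUCAUAGAggaaaauccacgu
miR-376b-3p: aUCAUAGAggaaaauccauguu
miR-376c-3p: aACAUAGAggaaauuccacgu
MiR-376c-3p had 4 and 9 reads, miR-376b-3p 6 and 3, and miR-376a-3p 1 in each library. MiR-376a-3p is 2 edits from each of its relatives, so this split is uncertain. MiR-376a-5p, the other arm of mir-376a-1, had 5 and 6 reads. RefSeq lists miR-376a-3p for 2 hairpins and miR-329-3p likewise, yet the table held only mir-376a-1 and mir-329-1. No member name had more than 1 row.

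The brain-enriched miR-134-5p, known as a regulator of dendritic spine size, had 7 and 11 reads (0.680 ± 0.0465 RPM). MiR-494-3p had 6 and 9 reads and miR-495-3p 6 and 8. MiR-379-5p, whose hairpin opens the downstream side, had 6 and 4 reads, and miR-379-3p 5 and 1. MiR-377-3p had 5 and 2 reads and miR-382-5p 3 and 0. MiR-543 and miR-299-5p had 1 read in each library. MiR-154-5p had 1 and 2 reads, miR-329-3p 0 and 3, miR-656-3p 2 and 2, miR-758-3p 4 and 2, miR-485-3p 3 and 1 and miR-539-5p 1 and 5. None of these was above 0.8 RPM in either library, and counts of this size do not set an order among them.

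The 57 sequences had 50 different seeds, and 7 seeds were shared by 2 listed names each. The highest shared seed belonged to miR-539-3p and miR-485-3p, which summed to 1.81 ± 0.449 RPM. Next came miR-379-3p and miR-411-3p with 0.481 ± 0.497 RPM, then miR-376a-3p and miR-376b-3p with 0.453 ± 0.274 RPM. Summing by seed thus brought no group near the 6 highest names. Outside the cluster, only 3 listed miRNAs with a RefSeq sequence shared a seed with a member. MiR-362-3p had 2.21 ± 0.279 RPM (26 and 31 reads), while its partner by seed, miR-329-3p, had 0 and 3 reads. MiR-3118, which shares the seed of miR-134-5p, had 3 reads and 0 reads, and miR-6884-5p, which shares that of miR-485-5p, 2 reads and 0 reads.

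In base composition the 6 highest names did not stand at one end of the cluster. Their GC content ran from 33.3% to 54.5% with a median of 45.5%, the same median as in the other 51 names with a sequence (23.8% to 68.2%). The first base, which sits in a pocket of Argonaute proteins, was U in 4 of the 6 and in 16 of the 51, against 39.9% of 1317 listed names with a sequence. These shares describe few names.

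Among the hairpins with enough reads to compare their arms, the 3p arm was more often the higher one. Of 17 hairpins with both arms listed, 8 had 10 or more reads over the arms in each library. The 3p arm was over 2-fold higher in both libraries in 6 of these, against 36.9% of 325 hairpins of the table under the same rule. The 5p arm was in 1, against 46.2%, and neither in 1, against 16.9%. These 8 passed through their read number, and the 9 others were too low to judge.

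Mir-411 was the hairpin with the higher 5p arm, with 219 and 252 reads of miR-411-5p against 4 and 1 of miR-411-3p. Its 3p share was 1.79% (exact Clopper-Pearson 95% interval 0.491 to 4.53) and 0.395% (0.010 to 2.18). Mir-410 was the most 3p-sided, with 125 3p reads against 1, and 139 against 0, which puts the 3p share in replicate 2 at 97.4% or above. The 3p share of mir-889 was 98.6% in both libraries and that of mir-654 98.2% and 96.5%. Mir-409 kept more of its minor arm than these 3p-sided hairpins, with a 3p share of 92.6% (87.5 to 96.1) and 91.9% (86.8 to 95.5). With fewer reads, mir-299 had 94.7% (74.0 to 99.9) and 91.7% (61.5 to 99.8). For mir-539 the share was 95.2% (76.2 to 99.9) and 81.5% (61.9 to 93.7). The most balanced was mir-369, where 20 and 11 reads of miR-369-3p met 7 and 9 of miR-369-5p, a 3p share of 74.1% (53.7 to 88.9) and 55.0% (31.5 to 76.9).

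**Figure D4:**
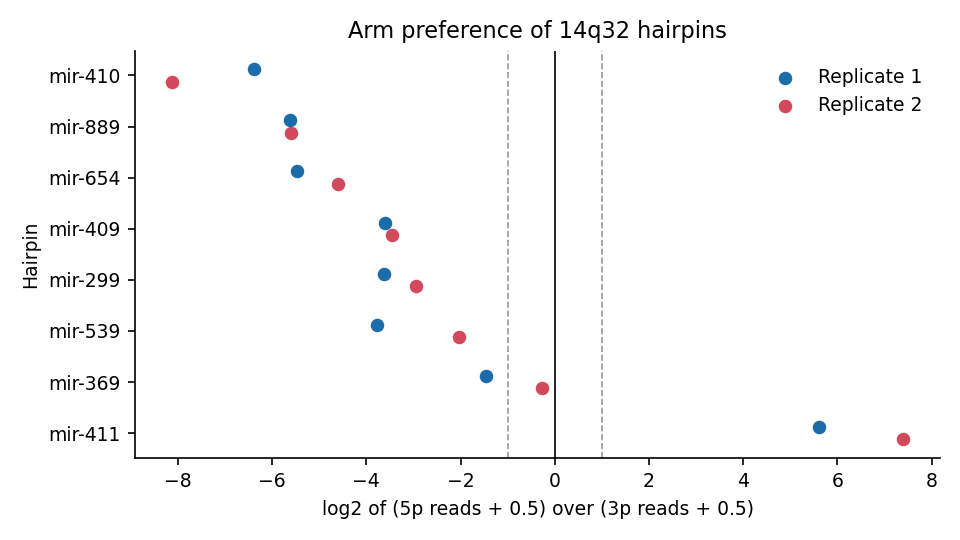
Arm preference of the 8 member hairpins with enough reads, as log2 of 5p over 3p reads with 0.5 added to each, in replicate 1 (blue) and replicate 2 (red); dashed lines mark 2-fold. Mir-411 lies to the right and 6 hairpins lie left of the left dashed line in both libraries, while mir-369 crosses it.

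The members were then compared between the 2 libraries, which measures their error and no condition. The whole cluster had 1094 reads in replicate 1 and 1090 in replicate 2, nearly equal numbers, although replicate 2 had 1.43-fold more reads in all. In RPM it was therefore 1.43-fold higher in replicate 1. Of the 21 members with 10 or more reads in sum, 17 were higher in replicate 1 by RPM, all of the 6 highest among them, against 55.1% of 869 names with as many reads. Their median log2 difference, replicate 1 over replicate 2 with 0.5 reads added, was 0.36, against 0.07 for all 869. Scaling by the median ratio of names at 10 RPM or more moved all values by 0.10 on the log2 scale. The members' median was then 0.26 against -0.03, with 17 of 21 still higher in replicate 1 against 48.4%. The members share their libraries, so these counts are a description.

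For single members a two-sided Fisher's exact test set the reads against the rest of each library's total over all rows. Benjamini-Hochberg adjustment ran over 869 names. At an adjusted p under 0.05 and over 2-fold, 2 of 21 members were called, both higher in replicate 1. Of all names tested, 4.6% were called, and 3.34% in that direction. Among the 567 tested names with no more reads in sum than the member with most reads, 6.0% were called. At any fold, 5 of 21 members had an adjusted p under 0.05, against 300 of 869 names, 184 of them higher in replicate 1. MiR-369-3p, with 20 and 11 reads, was 2.59-fold higher in replicate 1 (exact 95% interval 1.19 to 5.99, adjusted p = 0.031 by Fisher's exact test). MiR-323a-3p, with 11 and 4 reads, was 3.92-fold higher (1.16 to 16.9, adjusted p = 0.047 by Fisher's exact test). Both calls were lost on the median ratio scale, with adjusted p of 0.054 and 0.092 by the same exact test.
miR-369-3p: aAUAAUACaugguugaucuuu
miR-323a-3p: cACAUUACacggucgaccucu

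Among the 6 highest, miR-381-3p differed most, 1.85-fold (1.47 to 2.32, adjusted p = 3.3e-07 by Fisher's exact test), which is under the 2-fold limit. MiR-409-3p was 1.35-fold (1.08 to 1.70) and miR-654-3p 1.44-fold (1.09 to 1.89) higher in replicate 1, with adjusted p of 0.025 and 0.024 by the same exact test. On the median ratio scale these became 0.12 and 0.095, while miR-381-3p stayed under the limit (adjusted p = 1e-05 by the same exact test). MiR-411-5p was 1.24-fold (1.03 to 1.49), miR-410-3p 1.28-fold (0.999 to 1.64) and miR-889-3p 1.45-fold (1.03 to 2.03) higher. Their adjusted p were 0.060, 0.11 and 0.075 by the same exact test, above the limit. In an unplanned alternative, each mature name was counted once in the library totals. The adjusted p of miR-411-5p was then 0.048 by the same exact test, under the limit, while miR-410-3p and miR-889-3p stayed above it. MiR-127-3p, at 7 and 12 reads, was 1.20-fold higher in replicate 2, with an interval that included no difference. The median absolute log2 difference with 1 RPM added was 0.29 in the 21 members and 0.25 in all 869 names.

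**Figure D5:**
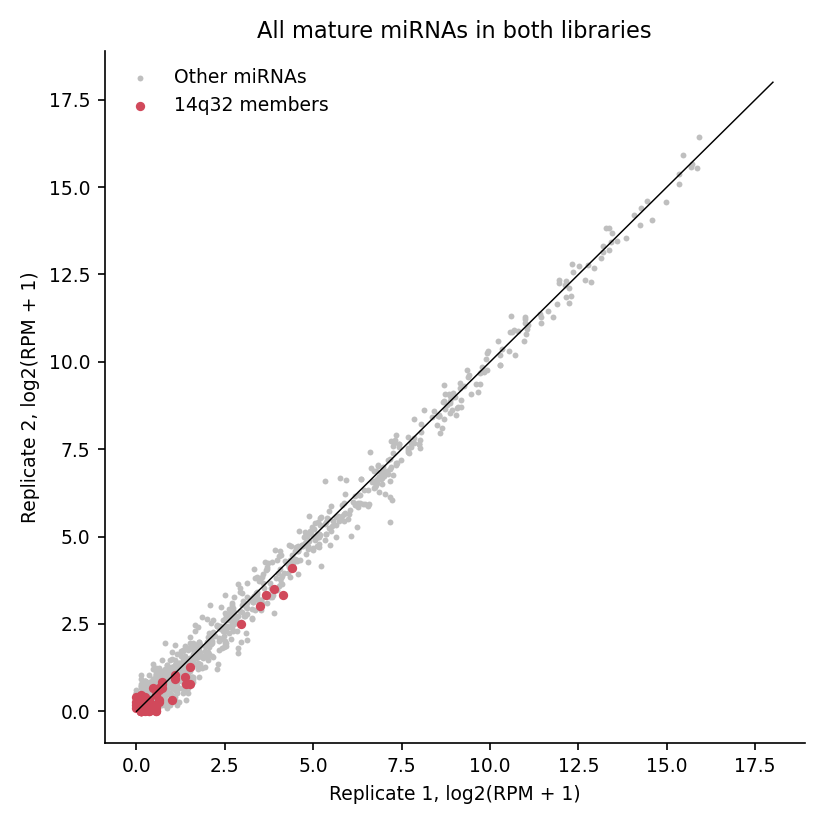
Level of every mature name, as log2(RPM + 1), in replicate 1 (horizontal) against replicate 2 (vertical), with the 58 members in red, other names in grey and the line of equal values in black. The 6 highest members lie below the line, higher in replicate 1.

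Fixed lists of miRNAs linked to melanoma and to other cell types were then read, without a test of cell identity. A level of 10 RPM in each library was reached by 22.4% of all names. Of 7 melanoma and melanocyte miRNAs, 6 reached 10 RPM in each library. The list sum was 89387 and 77146 RPM, of which miR-21-5p held 59733 and 47975 RPM. MiR-211-5p, a marker of pigmented melanocytes, had 3 and 2 reads. Fibroblast and mesenchymal miRNAs, a cell type known for high 14q32 expression, summed to 1623 and 1682 RPM with all 6 listed and 3 at 10 RPM. They were led by miR-199a-3p (843 ± 14.1 RPM), miR-199b-5p (707 ± 61.6 RPM) and miR-143-3p (99.6 ± 6.71 RPM). Of the rest, miR-199a-5p had 20 and 52 reads, miR-145-5p 3 and 2 reads and miR-214-3p 2 reads and 1 read. Blood and serum miRNAs summed to 184 and 210 RPM with 6 of 8 listed and 1 at 10 RPM. Nearly all of that sum was miR-486-5p, a red cell miRNA, with 171 RPM (1849 reads) and 200.1 RPM (3088 reads), while miR-451a, also a red cell miRNA, had 1 read and 0 reads. Pluripotent miRNAs summed to 1.02 and 0.843 RPM with 3 of 8 listed. No list sum, that of the melanoma and melanocyte miRNAs included, was 1.43-fold higher in replicate 1, so the lists were alike in this respect. The part of any of these cell types in the cluster's level was not tested.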

How the data were processed

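Small RNA libraries came from A375 cells, seeded at 1000000 per 10 cm dish and given DMSO 24 h later for 48 h, per the labels' protocols. CASAVA 1.8 and cutadapt 1.2.1 are named in the submitters' processing notes. For the aligner, miRNA annotation and build, the sources used here give nothing. The authors deposited RPM per hairpin and mature name. Dividing each column by its lowest value above 0 gave whole numbers (100% within 0.01 reads), which were used as reads. A mature name listed under several hairpins kept its highest value. In all, 45 names had several hairpins and 0 of these were members. The reduced totals were 77.6% and 78.3% of the deposited ones, and 0 other value columns were present.

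Fisher's exact test (scipy 1.17.1) was checked on simulated counts with counting noise alone, where only names with a mean of 10 RPM or more were changed. That check does not cover names as low as the members called, or spread between libraries beyond counting error. The members, lists and the rule for named miRNAs (the highest 12, those over 10 RPM, the extremes by arm and library, and a fixed list) were chosen with earlier results of these data known. Sequences were RefSeq's, positions GENCODE 29's. Alternatives were other minima, pseudocounts, scales, fold limits, summed copies, totals with each mature name counted once and each library left out. Intervals are at 95%.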

Additional observations from a re-analysis of the deposited data

How the results depend on the processing

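The number of members reaching 10 RPM in each library, 2, became 8 at 1 RPM, 5 at 5 RPM, 0 at 20 RPM and 0 at 100 RPM, and 4 by the mean. With 1 library left out it ranged from 2 to 5, since miR-381-3p, miR-410-3p and miR-654-3p passed in replicate 1 alone. The count of members called between libraries by Fisher's exact test, 2, became 5 without a fold limit, 1 at 3-fold, 0 without a read minimum and 0 on the median ratio scale. The count over all names, 40, became 300, 16, 34 and 38 in the same order. These were counts out of 869 names, or out of 1497 without a read minimum. At an unadjusted p under 0.05 there were 11 members without a read minimum, 6 on the median ratio scale and 9 in the test as reported. The smaller counts without a read minimum go with adjustment over 1497 names in place of 869. Hairpins with neither arm called, 1, became 0 at a minimum of 50 reads and ranged from 1 to 2 with 1 library left out. The upstream sum became 0.231 RPM without its highest name. The median absolute log2 difference of 0.29 became 0.36 with 0.1 RPM added, 0.052 with 10 RPM, 0.19 without a read minimum and 0.23 on the median ratio scale. Over the 7 alternatives run for the 21 members tested, a call was gained in 4 cases, lost in 5 and left as it was in 138. Only the median ratio scale and the totals with each mature name counted once could move a member's log2 difference. No direction reversed under these. The other alternatives left that difference unchanged by construction, so they could not test its direction. No paired analysis was possible because the series has 1 group. Depth limits the order of all members outside the 6 highest, each with 22 or fewer reads in either library.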

Other observations

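Other imprinted miRNAs, listed for comparison, did not share one level. MiR-296-3p and miR-296-5p, from the GNAS region, stood at 53.6 ± 5.71 and 33.7 ± 1.75 RPM (SD, n = 2), and miR-335-3p and miR-335-5p, from MEST, at 37.9 ± 13.5 and 11.1 ± 2.74 RPM. MiR-335-3p was higher in replicate 2 (47.4 RPM) than in replicate 1 (28.4 RPM), the reverse of the 14q32 sum. MiR-675-5p, from H19, had 6 and 5 reads and miR-483-5p, from IGF2, 1 read and 0 reads. The placental cluster C19MC, also imprinted, summed to 12.6 and 13.0 RPM over 34 listed names, with 0 at 10 RPM in both libraries, where 14q32 had 2 of 58. The X-linked miR-506 to miR-514 hairpins summed to 559 and 598 RPM over 20 names, 8 of them at 10 RPM or more in both. Of all names, 22.4% reached that level in both libraries. These sums are descriptions, since members of a cluster are not replicates. The 14q32 hairpins mir-770, mir-2392 and mir-1247, outside the members, had no row and were not analysed here.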
